A study of Mus musculus with 46 samples.

Results

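The genes of epithelial cell junctions were followed through the conversion of mouse embryonic fibroblasts (MEF) to induced pluripotent stem cells (iPSC). They were chosen by symbol alone: all numbered claudins in the gene table (23), the simple keratins Krt7, Krt8, Krt18 and Krt19 (4), the desmosome genes Dsc1 to Dsc3, Dsg2, Dsp, Pkp1 to Pkp4 and Jup (10), the tight junction scaffold and membrane genes such as Tjp1, Ocln, F11r and Crb3 (6), and the adhesion molecules Cdh1 and Epcam (2). These are 45 of the 37108 genes in the table, and the rule uses no measured value.

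Retroviruses delivered Oct4 (Pou5f1) and either native Nanog (NanogWT, labelled Nanog+Oct4) or NanogBiD (labelled NanogN70+Oct4), in which an N-terminal stretch of the BAF subunit SS18 that binds BRG1 precedes Nanog. The MEF came from mid-gestation embryos of male mice with OG2, an Oct4-GFP reporter, and 129 females, and both combinations shared this background, the Oct4 virus and the media (iCD3, then N2B27 with 2iL from about D7). mRNA libraries were made from total RNA at D0 (the end of infection) and on 7 later days up to D12, with 2 libraries per combination and day and 1 for NanogBiD at D8, which gave 31 time-course libraries. 12 iPSC libraries (6 per combination), 2 MEF libraries and 1 library of OG2 mouse embryonic stem (mES) cells grown without feeders in 2iL completed the 46 samples. The iPSC comprised 7 libraries of lines named iPSC1 and 5 of lines named iPSC2, whose passage differs as well, so a line effect cannot be told apart from one of passage. The NanogWT iPSC1 samples 1# and 1#-2 share a clone number and may be 1 clone, so the 6 NanogWT libraries may come from 5 clones. The time-course cultures were infected populations, not clones. Nothing in the labels says that the replicates of a day are separate cultures, so p-values measure the spread between these libraries, which may be technical.

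Values are FPKM, fragments scaled by gene length and by the mapped fragments of the library, as the authors deposited them. Total FPKM per time-course library was 370030 to 462190. Relative depth, read from the step between low values, lay between 0.869 and 1.1 up to D7 (20 libraries). Later it lay between 0.81 and 1.02 with NanogBiD (5 libraries) and between 1.84 and 3.18 with NanogWT (6 libraries). From D8 on, a difference between the combinations therefore comes with a difference in depth, and those cannot be told apart. Within NanogWT, any comparison of D8 or later with an earlier day also crosses this change in depth, with the same limit. The fibroblast markers (Col1a1, Col1a2, Col3a1, Thy1, Postn, Dcn and Lum) summed to 5602 to 6584 FPKM in MEF and to 4.33 FPKM in mES, and the 8 pluripotent cell markers to 0.566 to 1.92 FPKM in MEF and 4705 FPKM in mES, so both reference samples carried the markers of their labels.

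Epithelial cells are held together by 3 kinds of contact that the members build. Cdh1 encodes E-cadherin, the homophilic receptor of adherens junctions. Tight junctions are made of claudins, occludin (Ocln) and JAM-A (F11r) in the membrane, tied to actin by zonula occludens scaffolds such as ZO-1 (Tjp1), while desmosomes join desmogleins and desmocollins through plakoglobin (Jup), plakophilins and desmoplakin (Dsp) to keratin filaments. Fibroblasts are mesenchymal and make few of these proteins, whereas mouse ES cells are epithelial, and a gain of epithelial character is a known step of reprogramming. The question put to these data was when the members were gained, and whether the time differed between NanogBiD and NanogWT.

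The upstream sequences of 5 members are shown because these genes mark the courses described here: Epcam and Cldn3 (called early with NanogBiD), Cldn4 (called at D5), Krt8 (steep between D7 and D8) and Cldn1 (up in both combinations, then lost with NanogBiD). Each is the 250 bases before the gene start in RefSeq, build GRCm38.p6, 5′ to 3′ on the strand of the gene. Capitals mark matches on either strand to CACCTG, the E-box type read by the Snai and Zeb repressors, to ACCGGT, a core of sites of the epithelial Grainyhead-like (GRHL) factors, and to CCGCCC, the GC box of Sp and Klf factors.
Epcam, chr17:87635729-87635978 (+): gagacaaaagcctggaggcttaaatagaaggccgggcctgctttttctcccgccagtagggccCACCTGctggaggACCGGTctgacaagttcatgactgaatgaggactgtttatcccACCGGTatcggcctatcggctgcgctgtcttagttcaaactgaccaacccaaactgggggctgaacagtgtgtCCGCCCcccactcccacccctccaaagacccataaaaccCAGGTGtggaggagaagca
Cldn3, chr5:134985964-134986213 (+): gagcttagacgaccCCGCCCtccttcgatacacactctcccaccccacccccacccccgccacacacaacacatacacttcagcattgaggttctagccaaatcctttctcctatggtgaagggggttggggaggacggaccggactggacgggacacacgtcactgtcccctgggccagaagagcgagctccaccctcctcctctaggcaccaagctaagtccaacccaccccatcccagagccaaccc
Cldn4, chr5:134946935-134947184 (-): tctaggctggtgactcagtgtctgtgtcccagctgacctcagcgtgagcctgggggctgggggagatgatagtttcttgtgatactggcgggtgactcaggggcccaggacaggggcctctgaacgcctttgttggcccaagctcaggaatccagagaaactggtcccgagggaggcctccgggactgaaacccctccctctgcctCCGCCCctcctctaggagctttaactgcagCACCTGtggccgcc
Krt8, chr15:102004343-102004592 (-): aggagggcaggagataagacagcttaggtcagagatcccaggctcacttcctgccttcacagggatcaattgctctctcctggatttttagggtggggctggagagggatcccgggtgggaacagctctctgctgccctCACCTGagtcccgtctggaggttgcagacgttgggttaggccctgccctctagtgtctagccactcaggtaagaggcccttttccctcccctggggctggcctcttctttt
Cldn1, chr16:26371840-26372089 (-): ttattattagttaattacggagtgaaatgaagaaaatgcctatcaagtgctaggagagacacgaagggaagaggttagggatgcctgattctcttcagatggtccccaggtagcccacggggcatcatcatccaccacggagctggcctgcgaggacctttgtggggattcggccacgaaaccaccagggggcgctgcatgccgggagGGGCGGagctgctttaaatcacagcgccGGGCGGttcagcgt

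Epcam held 2 matches to CACCTG, 2 to ACCGGT and 1 to CCGCCC. Cldn4 held 1 match to CACCTG and 1 to CCGCCC, Krt8 1 to CACCTG alone, Cldn3 1 to CCGCCC alone and Cldn1 2 to CCGCCC alone. The RefSeq table had an entry for 31 of the 45 members. Of these, 13 (41.9%) held CACCTG, 1 (3.23%, Epcam) held ACCGGT and 19 (61.3%) held CCGCCC, against 19.4%, 2.13% and 35.4% of the 27025 gene symbols with an entry. A match is a run of letters, not a bound site.

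The number of members at 1 FPKM or more gives the first view of the course. It was 10 and 12 of 45 in the MEF libraries, and 12 and 14 with NanogBiD and 11 and 12 with NanogWT at D0. With NanogBiD it was 17 and 15 (D3), 20 and 20 (D5), 23 and 22 (D7), 25 (D8), 26 and 25 (D10) and 29 and 23 (D12). With NanogWT it was 17 and 19 (D3), 13 and 15 (D5), 16 and 15 (D7), 17 and 16 (D8), 14 and 18 (D10) and 14 and 18 (D12). The mES library had 23. From D5 on every NanogBiD library lay above every NanogWT library. The share of all genes at 1 FPKM or more was 33.5% to 34.0% in the 4 libraries of D0. With NanogBiD it was 36.1% and 36.4% (D5), 37.0% and 36.9% (D7) and 38.9% and 38.7% (D12). With NanogWT it was 35.5% and 36.2% (D5), 36.4% and 36.2% (D7) and 37.4% and 37.5% (D12). The share of all genes thus also lay higher with NanogBiD at D7 and D12. In such bulk samples, fewer cells of a type and less RNA per cell cannot be told apart.

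**Figure D1:**
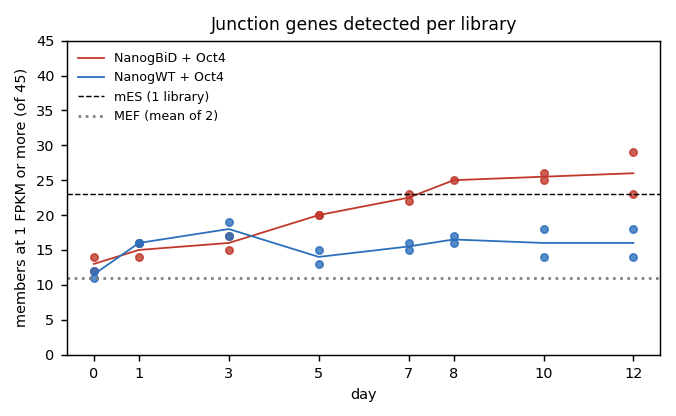
Number of the 45 junction genes at 1 FPKM or more (y axis) by day (x axis); points are single libraries, lines join the means of a combination, and the horizontal lines give mES (23) and the mean of the 2 MEF libraries. The NanogBiD libraries sit at 20 to 29 from D5 on and the NanogWT libraries at 13 to 18.

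31 of the 45 members passed the filter of 1 FPKM in at least 2 time-course libraries and entered the test over 16842 genes. The 14 others comprised 3 listed at 0 throughout (Cldn8, Cldn13, Cldn16), 10 that stayed under 1 FPKM in all time-course libraries (Cldn2, Cldn10, Cldn14, Cldn15, Cldn17, Cldn18, Cldn19, Dsc1, Dsc3, Pkp1; highest value 0.558 FPKM, Cldn15) and Ocln, which reached 1 FPKM in 1 library. A member was called where limma gave a Benjamini-Hochberg adjusted p under 0.05 over all genes and a difference of at least 1 in log2(FPKM + 1). All adjusted p-values of the time course come from this one limma fit, all differences are on that scale, and it understates the change of low genes.

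NanogBiD and NanogWT were first compared day by day. No member was called at D0 (0.76% of all tested genes were) or at D1 (1.33%). At an unadjusted p under 0.05 the same limma fit gave 4 of the 31 members at D0 and 5 at D1, against 15.8% and 13.5% of all genes. At D3, Cldn3 was higher and Cldn24 lower with NanogBiD (1 each, against 1.25% of all genes called higher and 2.45% lower), and at D5 7 members were higher and 0 lower (3.2% and 3.28% of all genes). At D7 12 members were higher and 0 lower (5.79% and 4.65%), at D8 11 and 1 (13.0% and 9.35%), at D10 16 and 1 (15.4% and 12.3%) and at D12 17 and 2 (13.5% and 9.97%). The 31 members tested had to reach 1 FPKM in at least 2 libraries of either combination. Cldn5, Cldn6, Cldn7, Cldn9, Crb3 and Pkp3 never reached 1 FPKM with NanogWT, and Cldn22 and Cldn24 never did with NanogBiD. These passed the filter through 1 combination only, so the direction of their calls was largely fixed and is no support. The same holds for them in the interaction below. The counts are therefore read out of 45.

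Over the 42 members with any value above 0, tested with no filter, the median difference between the combinations was 0 at D0, 0.08 at D5, 0.26 at D7 and 0.45 at D12, where 31 lay above 0 and 10 below. The median over all 30494 genes was 0 on these days. With the filter, the median over all 16842 genes was 0.08 at D7 and 0.17 at D12, and 0.0043 and 0.07 after quantile normalization.

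The calls at D3 were the least firm. That day 0 members were called when either NanogWT library or NanogBiD replicate 1 was left out, or when the D3 libraries were fitted alone, and 1 (Cldn3) without NanogBiD replicate 2. Cldn24 was low throughout, at 1.2 and 1.08 FPKM with NanogWT and listed at 0 in both NanogBiD libraries at D3.

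**Figure D2:**
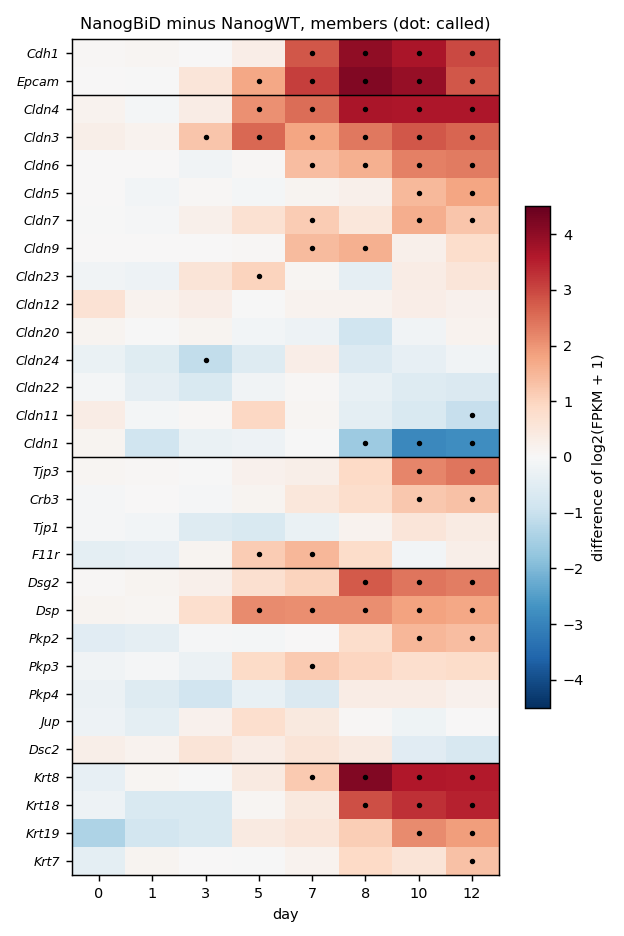
Difference of log2(FPKM + 1) between NanogBiD and NanogWT (colour) for members tested (rows, grouped from top as adhesion, claudins, tight junction scaffold and membrane, desmosome, simple keratins) by day (columns); dots mark calls. Epcam, Cldn3, Cldn4 and Dsp are called at D5, and Cdh1, Krt8 and Krt18 have joined them by D12. Cldn1 is lower with NanogBiD at D1, D3 and D5 without a call, and again from D8.

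Within a combination the days were compared with its own D0, which these comparisons share. With NanogBiD, 1 member was higher and 1 lower at D1 (5.06% and 3.79% of all genes), and 8 were higher and 3 lower at D3 (8.95% and 6.06%). By D5 the counts had become 13 and 3 (13.3% and 6.23%), by D7 17 and 2 (12.7% and 6.15%) and by D8 18 and 1 (18.2% and 6.73%). They closed with 16 and 1 at D10 (21.6% and 9.84%) and 17 and 2 at D12 (24.6% and 10.2%). With NanogWT, 2 were higher and 2 lower at D1 (4.61% and 3.03%), and 7 and 2 at D3 (9.55% and 5.11%). By D5 the counts were 6 and 2 (10.8% and 5.34%), by D7 8 and 3 (12.0% and 5.69%) and by D8 5 and 3 (12.8% and 4.98%). They closed with 6 and 3 at D10 (11.8% and 4.19%) and 7 and 3 at D12 (12.2% and 3.95%). The NanogWT split depended on the scaling. It was 4 and 5 at D12 after quantile normalization and 11 and 3 at D10 on a common total. The median of all tested genes at D12 against D0 was 0.34 with NanogBiD and 0.19 with NanogWT, and -0.01 and -0.05 after quantile normalization.

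The first day from which a member stayed called upward until D12 differed widely with NanogBiD. It was D1 for Pkp4, D3 for Cldn3, Dsg2, Dsp and Epcam, D5 for Cldn4 and Cldn7, D7 for Cdh1, Cldn6 and Krt8, D8 for Krt18 and Tjp3, D10 for Cldn5 and Crb3, and D12 for F11r and Pkp3, which had also been called on earlier days. In all, 17 members stayed called upward until D12. With NanogWT there were 7: Cldn1 from D1, Cldn11 and Dsc2 from D3, Cldn3 from D7, Cdh1 and Epcam from D10 and Dsg2 at D12. Some NanogWT members had also been called upward earlier, Cldn3 and Dsg2 from D3 with gaps and Epcam at D7. Dsp was called upward with NanogWT at D3 only, and Cldn4 at D8 only. Cldn3, Dsg2 and Dsp were thus first called against D0 on the same day, D3, in both combinations. The order of days between members was not tested, since each day marks where a value crossed the threshold. The medium changed at about D7 in both combinations. A step from D7 to D8, or a later first day, therefore cannot be told apart from an effect of the medium.

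Epcam and Cdh1, the adhesion molecules of the list, were called from different days. Epcam (chromosome 17, 87635979 to 87651127) encodes a homophilic adhesion molecule of epithelial and pluripotent cells. With NanogBiD it was listed at 0 and 0 FPKM (D0), 0.633 and 0.139 (D1), 1.68 and 0.792 (D3) and 5.02 and 4.17 (D5), then at 17.1 and 16.4 FPKM (D7), 35 (D8), 41.9 and 20.2 (D10) and 28.6 and 16.6 (D12). With NanogWT it was at 0 and 0 FPKM (D0), 0.261 and 0.538 (D1), 0.709 and 0.316 (D3) and 0.631 and 0.687 (D5), then at 1.35 and 0.766 FPKM (D7), 0.867 and 1.12 (D8), 0.599 and 1.52 (D10) and 1.33 and 3.57 (D12). The groups did not overlap from D3 on, MEF were at 0 and 0.124 FPKM and mES at 40.1 FPKM. The difference was called from D5 on. By limma with Benjamini-Hochberg adjustment it was 1.75 at D5 (SE 0.34, adjusted p = 0.00114), 3.12 at D7 (SE 0.34, adjusted p = 1.2e-06) and 2.81 at D12 (SE 0.34, adjusted p = 1.29e-06).

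Cdh1 (chromosome 8, 106603350 to 106670247) was first called between the combinations 1 sampling day after Epcam. NanogBiD libraries held 0.0555 and 0.0415 FPKM (D0), 0.0803 and 0.0518 (D1), 0.028 and 0 (D3) and 0.182 and 0.409 (D5), and then 6.78 and 6.06 FPKM (D7), 20.4 (D8), 38.7 and 20.7 (D10) and 49.8 and 33.3 (D12). NanogWT libraries held 0 and 0 FPKM (D0), 0 and 0 (D1), 0 and 0 (D3) and 0.0267 and 0.0639 (D5), and then 0.0712 and 0.066 FPKM (D7), 0.122 and 0.616 (D8), 0.858 and 1.9 (D10) and 2.46 and 7.15 (D12). Both libraries of D7 lay far above both of D5 with NanogBiD, whereas the first NanogWT library above 1 FPKM came at D10. The difference was not called at D5 (0.30, SE 0.31, adjusted p = 0.562) and was called at D7 (2.79, SE 0.31, adjusted p = 1.64e-06) and D12 (2.97, SE 0.31, adjusted p = 2.17e-07). At D12 Cdh1 stood at 22.4% of the mES level of 185 FPKM with NanogBiD and at 2.59% with NanogWT, and its own rise from D0 was called in both (5.31, SE 0.31, adjusted p = 4.1e-11 with NanogBiD, 2.41, SE 0.31, adjusted p = 4.71e-06 with NanogWT).

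Of the 23 claudins, whose extracellular loops set which ions and solutes pass the tight junction, 13 were tested and 5 were called higher and 2 lower with NanogBiD at D12. Cldn3 and Cldn4 belong to the claudins that tighten the barrier and bind the toxin of Clostridium perfringens. Cldn3 (chromosome 5, 134986214 to 134987476) was the first of them to be called. Its NanogBiD libraries were at 0.39 and 0.486 FPKM (D0), 1.88 and 1.45 (D1), 8.78 and 3.51 (D3) and 11.8 and 10.5 (D5), followed by 9.99 and 6.57 FPKM (D7), 18.5 (D8), 20.3 and 13 (D10) and 19.6 and 14.4 (D12). Its NanogWT libraries were at 0.214 and 0.2 FPKM (D0), 1.17 and 1.55 (D1), 1.47 and 2.11 (D3) and 0.468 and 1.74 (D5), followed by 2.4 and 1.11 FPKM (D7), 2.63 and 2.91 (D8), 1.82 and 1.14 (D10) and 1.69 and 2.05 (D12). The combinations overlapped at D1 and not from D3 on, and at D12 NanogBiD lay at 112.1% of the mES level (15.2 FPKM) and NanogWT at 12.4%. The difference was 2.60 at D5 (SE 0.33, adjusted p = 1.38e-05). Cldn3 overlaps Wbscr25, and because the use of strand in the counting is not given in the sources used here, its reads may include that gene's.

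Cldn4 (chromosome 5, 134945123 to 134946934), a neighbour of Cldn3, was at 0.0679 and 0.677 FPKM (D0), 0.622 and 1.65 (D1), 1.81 and 0.643 (D3) and 6.94 and 4.91 (D5) with NanogBiD, and at 12.7 and 12.4 FPKM (D7), 34.6 (D8), 49.9 and 18 (D10) and 47.1 and 24.1 (D12). With NanogWT it did not exceed 3.15 FPKM, the value of 1 library at D12. MEF held 0.217 and 0.636 FPKM and mES 76.3 FPKM. The difference between the combinations was 2.06 at D5 (SE 0.47, adjusted p = 0.00443), where the call was lost without NanogWT replicate 1 or NanogBiD replicate 1 (adjusted p = 0.0044 to 0.057 over the alternatives), and 2.51 at D7 (SE 0.47, adjusted p = 4.35e-04). Cldn13, which lies close by, was listed at 0 in every time-course library.

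Cldn6 and Cldn9 lie next to each other on chromosome 17 (23679348 to 23682446 and 23682584 to 23684026), and Cldn6 is an early embryonic claudin. Both were near 0 in all NanogBiD libraries until D5 and appeared together at D7, Cldn6 at 1.84 and 1.45 FPKM and Cldn9 at 1.55 and 1.79 FPKM. After that they parted. Cldn6 was at 2.27 FPKM (D8), 5.13 and 3.91 (D10) and 7.6 and 4.65 (D12) with NanogBiD, while Cldn9 was at 2.18 FPKM (D8), 0.374 and 0 (D10) and 1.06 and 0.763 (D12). In mES Cldn6 was at 13.8 FPKM and Cldn9 at 0.573 FPKM, and with NanogWT neither exceeded 0.772 FPKM. The difference between the combinations at D7 was 1.40 (SE 0.20, adjusted p = 2.26e-05) for Cldn6 and 1.42 (SE 0.13, adjusted p = 1.38e-07) for Cldn9.

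Cldn7 was at 0.213 and 0.12 FPKM (D3), 1.28 and 1.05 (D5), 1.47 and 1.57 (D7), 1.29 (D8), 4.82 and 2.47 (D10) and 2.57 and 2.84 (D12) with NanogBiD and at most 0.758 FPKM with NanogWT. Its difference was first called at D7 (1.16, SE 0.20, adjusted p = 1.81e-04), and at D12 it had reached 17.6% of the mES level of 15.4 FPKM. Cldn5, best known from endothelial tight junctions, stayed under 0.5 FPKM until D8 and was at 1.81 and 1.77 FPKM (D10) and 5.49 and 1.26 (D12) with NanogBiD, against 0 and 0.0283 FPKM (D10) and 0.219 and 0.0426 (D12) with NanogWT (1.76, SE 0.29, adjusted p = 5.31e-05 at D12). Cldn23 was higher with NanogBiD at D5 only (1.17 and 2.27 FPKM against 0.128 and 0.574 FPKM, log2 difference 1.0), and that call was lost without NanogWT replicate 1 or NanogBiD replicate 2 (adjusted p = 0.0068 to 0.17 over the alternatives).

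**Figure D3:**
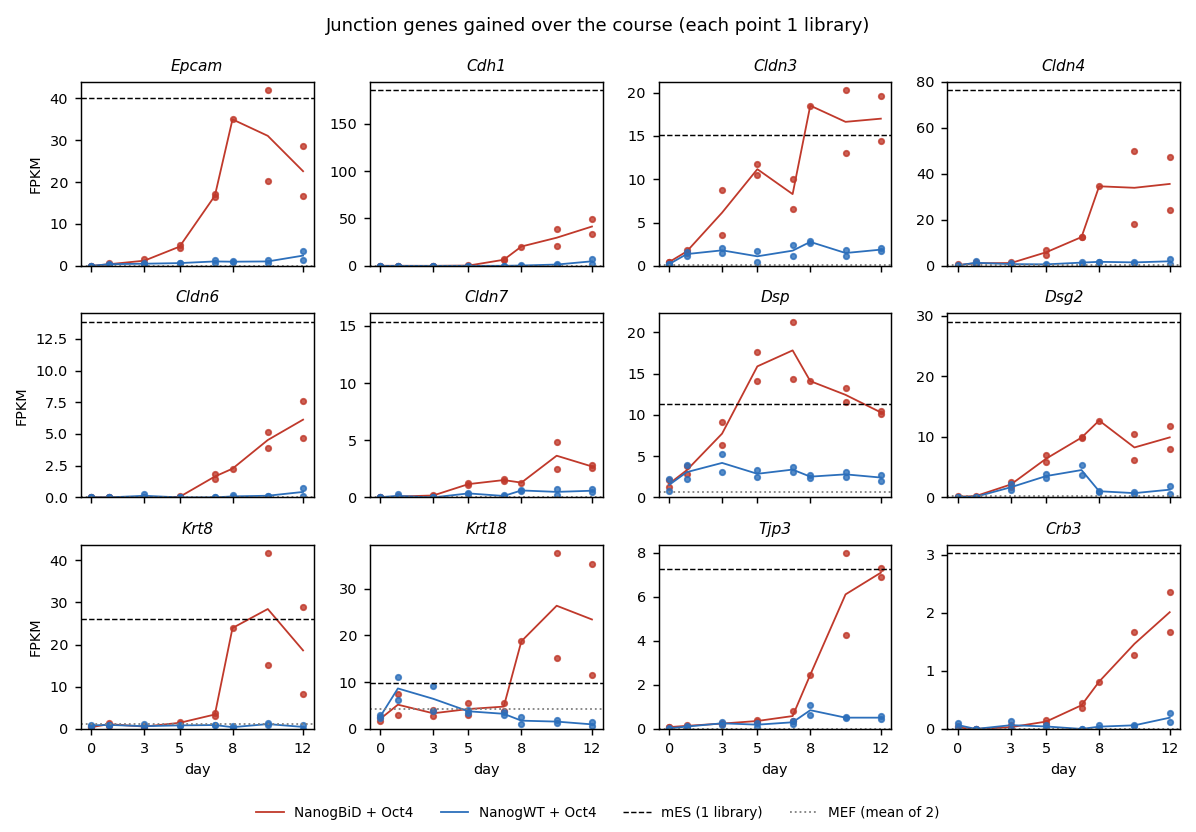
FPKM (y axes, linear, from 0) by day (x axes) of 12 members; points are single libraries, lines join the means of each combination, and the dashed and dotted lines give mES and the mean of 2 MEF libraries. With NanogBiD Cldn3, Dsp and Dsg2 leave the baseline by D3, and Epcam and Cldn4 climb between D5 and D8. Krt8 and Krt18 jump between D7 and D8. The medium changed at about D7, and NanogBiD has 1 library at D8.

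Cldn1, Cldn11 and Cldn12 ran against this pattern. Cldn1, a claudin of the epidermal barrier, was at 0.486 and 0.355 FPKM in MEF and 0.0425 FPKM in mES, yet at 10.6 to 13.9 FPKM in the 4 libraries of D0. With NanogWT it then held 26.4 and 32.1 FPKM (D1), 26.9 and 26 (D3), 43 and 37 (D5) and 39 and 39.3 (D7), and 61.4 and 75.6 FPKM (D8), 62.1 and 51.1 (D10) and 39.7 and 47.5 (D12). With NanogBiD it held 11.9 and 19.4 FPKM (D1), 17.5 and 25.5 (D3), 34.9 and 32.6 (D5) and 33.4 and 45.3 (D7), and 21.5 FPKM (D8), 7.73 and 5.77 (D10) and 5.71 and 4.97 (D12). NanogBiD libraries lay below both NanogWT libraries at D1 (-0.89, SE 0.22, adjusted p = 0.026 by limma), D3 and D5, without a call. The combinations overlapped at D7 and did not at D8, D10 or D12, and the difference at D12 was -2.81 (SE 0.22, adjusted p = 3.52e-09). Against D0, Cldn1 was called higher with NanogWT on all later days, and with NanogBiD higher at D5 and D7 and lower at D12 (-1.11, SE 0.22, adjusted p = 1.7e-04).

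Cldn11, the claudin of myelin and Sertoli cells, was highest between D5 and D8 in both combinations. It was under 0.7 FPKM in the 4 libraries of D0, at 9.43 and 6.76 FPKM (D3), 21.9 and 18 (D5), 15.7 and 15.5 (D7), 13.1 (D8), 4.43 and 3.15 (D10) and 1.67 and 0.772 (D12) with NanogBiD and at 10.8 and 5.28 FPKM (D3), 10.5 and 9.31 (D5), 17 and 12.5 (D7), 15.7 and 20.5 (D8), 8.45 and 5.1 (D10) and 4.78 and 2.38 (D12) with NanogWT. The lower value with NanogBiD at D12 (-1.02, SE 0.32, adjusted p = 0.0119) was not called without NanogWT replicate 1 (-0.64) or NanogBiD replicate 2 (-0.73), and its adjusted p was 0.0014 to 0.18 over the alternatives. Cldn12 fell in both, from 53.7 and 44.9 FPKM (NanogBiD) and 30.2 and 31.1 FPKM (NanogWT) at D0 to 14.8 and 16.2 FPKM and 12.2 and 15 FPKM at D12, with 8.11 FPKM in mES. Cldn20 and Cldn22 were tested and not called on any day in any comparison of the time course, and their highest values were 1.26 and 1.40 FPKM.

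Of the tight junction scaffold and membrane genes, Tjp3 and Crb3 were higher with NanogBiD at D12, while Tjp1 and F11r were not called that day and Ocln was not tested. Tjp3 (ZO-3), which is limited to epithelia, stayed under 1 FPKM with NanogBiD until D7, and was then at 2.46 FPKM (D8), 7.96 and 4.25 (D10) and 7.3 and 6.88 (D12), against 1.07 and 0.634 FPKM (D8), 0.528 and 0.497 (D10) and 0.446 and 0.576 (D12) with NanogWT (2.42, SE 0.19, adjusted p = 4.9e-09 at D12). Tjp3 overlaps Apba3, which makes its level uncertain.

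Crb3, a membrane anchor of the Crumbs polarity complex, was at 0.448 and 0.368 FPKM (D7), 0.816 (D8), 1.66 and 1.27 (D10) and 2.36 and 1.67 (D12) with NanogBiD and never above 0.271 FPKM with NanogWT (1.33, SE 0.12, adjusted p = 2.95e-08 at D12). Ocln was at 0.318 and 0.349 FPKM (D7), 0.221 (D8), 0.604 and 0.31 (D10) and 1.36 and 0.629 (D12) with NanogBiD, at most 0.143 FPKM with NanogWT and at 6.13 FPKM in mES. F11r, the junctional adhesion molecule JAM-A, was above 5 FPKM in every library. It was called between the combinations at D5 and D7 only, at 17.8 and 16.9 FPKM (NanogBiD) against 6.88 and 7.73 FPKM (NanogWT) at D5 and at 25.4 and 21.4 FPKM against 8.39 and 6.97 FPKM at D7 (1.49, SE 0.21, adjusted p = 2.24e-05). At D0 NanogWT had been at 14.3 and 10.9 FPKM and NanogBiD at 9.08 and 8.92 FPKM. NanogWT lay lower than at D0 at D5 (-0.70) and D7 (-0.64), without a call. By D10 NanogWT was at 17.3 and 18.2 FPKM, and the difference between the combinations at D12 was 0.27 (SE 0.21, adjusted p = 0.301). Tjp1 (ZO-1) lay between 10.3 and 32.4 FPKM in all libraries, with no call between the combinations. Against D0 it was called higher with NanogWT at D5 (1.00) and D7 (1.01), from 10.3 and 19.7 FPKM at D0.

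Among the 10 desmosome genes, Dsp, Dsg2 and Pkp2 were higher with NanogBiD at D12 and none was lower. Desmoplakin (Dsp) links desmosomes to keratin. It was at 1.24 and 2.06 FPKM (D0), 2.8 and 3.8 (D1), 6.37 and 9.09 (D3), 14.2 and 17.6 (D5), 21.3 and 14.3 (D7), 14.1 (D8), 13.3 and 11.6 (D10) and 10.4 and 10.2 (D12) with NanogBiD. With NanogWT it was at 0.82 and 2.21 FPKM (D0), 2.24 and 3.88 (D1), 3.09 and 5.26 (D3), 2.44 and 3.28 (D5), 3.66 and 3.08 (D7), 2.36 and 2.67 (D8), 2.52 and 3.07 (D10) and 2.05 and 2.77 (D12). All NanogBiD libraries from D3 on lay above every NanogWT library, Dsp was highest at D5 and D7, and by D7 it was at 157.3% of the mES level of 11.3 FPKM. The difference between the combinations was 0.77 at D3 (SE 0.28, adjusted p = 0.0913), 2.13 at D5 (SE 0.28, adjusted p = 1.91e-05) and 1.74 at D12 (SE 0.28, adjusted p = 3.51e-05).

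Dsg2, the desmoglein of simple epithelia, was higher than at D0 in both combinations at D3, D5 and D7. NanogBiD libraries were at 0.298 and 0.129 FPKM (D1), 1.67 and 2.62 (D3), 5.83 and 7 (D5) and 9.83 and 9.92 (D7), and at 12.7 FPKM (D8), 10.4 and 6.1 (D10) and 11.9 and 7.95 (D12). NanogWT libraries were at 0.0933 and 0.113 FPKM (D1), 1.21 and 2.15 (D3), 3.19 and 3.87 (D5) and 3.74 and 5.3 (D7), and at 1.13 and 0.91 FPKM (D8), 0.538 and 0.875 (D10) and 0.612 and 1.94 (D12). The combinations differed by 0.99 at D7 (SE 0.27, adjusted p = 0.00893), just short of the limit of 1, and by 2.76 at D8 (SE 0.33, adjusted p = 2.8e-06), the first day on which the NanogWT values lay below their own level at D7 while the NanogBiD value did not. Dsg2 overlaps 2 predicted genes, so its level is uncertain. Its partner Dsc2 was present for a time in both, at 10.2 and 15.7 FPKM with NanogBiD and 6.74 and 10.1 FPKM with NanogWT at D7, and at 1.76 and 0.988 FPKM and 2.25 and 3.63 FPKM at D12, with 0.369 FPKM in mES. It was called against D0 from D3 to D8 with NanogBiD and from D3 to D12 with NanogWT, and never between the combinations.

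The plakophilins each took their own course. Pkp2 was at 10.4 and 12.2 FPKM (D0), 9.12 and 7.66 (D7), 11.8 (D8), 24.1 and 16.4 (D10) and 20.7 and 16.3 (D12) with NanogBiD and at 15.9 and 17.3 FPKM (D0), 8.47 and 7.93 (D7), 6.39 and 6.4 (D8), 7.86 and 5.31 (D10) and 6.06 and 6.91 (D12) with NanogWT (1.38, SE 0.18, adjusted p = 3.54e-06 at D12), and its fall from D0 with NanogWT was called at D12 (-1.23, SE 0.18, adjusted p = 2.04e-05). Pkp3 was at 0.241 and 0.0189 FPKM (D3), 1.59 and 1.73 (D5), 2.35 and 2.6 (D7), 2.24 (D8), 1.71 and 0.484 (D10) and 1.68 and 0.805 (D12) with NanogBiD and at most 0.870 FPKM with NanogWT. Its difference at D7 (1.17, SE 0.24, adjusted p = 9.36e-04) was below the limit of 1 without NanogWT replicate 2 (0.92). Pkp4, a plakophilin relative found in many cell types, was called higher than at D0 from D1 on in both, up to D12 with NanogBiD and up to D7 with NanogWT (7.13 and 6.63 FPKM at D0 and 17.0 and 13.9 FPKM at D1 with NanogBiD, 8.45 and 8.63 FPKM and 23.1 and 23.7 FPKM with NanogWT). Plakoglobin (Jup), which adherens junctions and desmosomes share, lay between 12.2 and 29.6 FPKM in all time-course libraries and was not called in any of these comparisons.

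The 4 simple keratins, whose proteins pair as type II (Krt7, Krt8) with type I (Krt18, Krt19) in the filaments of single-layered epithelia, took 2 courses, a late gain (Krt8, Krt18) and a loss followed by higher values (Krt7, Krt19). Krt8 was at 0.477 and 0.374 FPKM (D0), 0.756 and 1.49 (D1), 0.515 and 0.613 (D3), 1.23 and 1.65 (D5), 3.88 and 2.96 (D7), 23.9 (D8), 41.6 and 15.2 (D10) and 28.8 and 8.39 (D12) with NanogBiD. With NanogWT it was at 0.786 and 0.912 FPKM (D0), 1.04 and 0.867 (D1), 0.221 and 1.08 (D3), 0.786 and 0.902 (D5), 0.874 and 0.972 (D7), 0.177 and 0.656 (D8), 0.905 and 1.4 (D10) and 0.0645 and 0.886 (D12). No NanogWT library exceeded the MEF level of 1.67 FPKM seen in MEF replicate 1, and the NanogBiD libraries of D8 to D12 all lay above 8 FPKM. As a share of the mES level of 26.1 FPKM, the NanogBiD mean was 13.1% at D7 and 91.6% at D8. The difference between the combinations was 1.19 at D7 (SE 0.43, adjusted p = 0.0456), a call that was lost with a pseudocount of 0.1, with no filter, after quantile normalization or without any 1 of the 4 libraries of that day (adjusted p = 0.030 to 0.18 over the alternatives), and 4.16 at D8 (SE 0.53, adjusted p = 5.49e-06), with the lone NanogBiD library assumed to vary like the other groups.

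Krt18, which lies beside Krt8 on chromosome 15 (102028216 to 102032026, with Krt8 at 101996711 to 102004342), was at 3.91 to 5.65 FPKM with NanogBiD at D7 and then at 18.8 FPKM (D8), 37.6 and 15.1 (D10) and 35.3 and 11.6 (D12), against 1.03 and 2.52 FPKM (D8), 1.24 and 1.9 (D10) and 0.541 and 1.42 (D12) with NanogWT (3.47, SE 0.50, adjusted p = 9.83e-06 at D12). In MEF it was at 4.22 and 4.16 FPKM. At D1 it was at 3.01 and 7.37 FPKM with NanogBiD and 6.2 and 11.1 FPKM with NanogWT, against 1.71 to 2.89 FPKM in the 4 libraries of D0, and neither difference was called. At D12 the NanogBiD mean was 235.8% of the mES level.

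Krt19 and Krt7 were lower than at D0 from D3 to D7 and from D3 to D5 with NanogBiD, before the gain of Krt8. Krt19 was at 6.77 and 12.1 FPKM in MEF and at 5.56 and 6.63 FPKM (D0), 1.72 and 3.44 (D1), 0.306 and 0.247 (D3), 0.568 and 0.867 (D5), 1.94 and 0.738 (D7), 2.52 (D8), 11 and 4.54 (D10) and 12.1 and 3.4 (D12) with NanogBiD. With NanogWT it was at 25.1 and 12.5 FPKM (D0), 4.51 and 5.94 (D1), 1.08 and 1.06 (D3), 0.334 and 0.25 (D5), 0.758 and 0.372 (D7), 0.451 and 0.815 (D8), 0.777 and 0.977 (D10) and 0.726 and 1.41 (D12). The lowest NanogBiD values came at D3, and from D8 on Krt19 was no longer called against D0, while the NanogWT libraries stayed at 1.41 FPKM or less from D3 on. The difference at D12 was 1.90 (SE 0.42, adjusted p = 9.18e-04). Krt7 was at 4.18 and 2.95 FPKM in MEF, listed at 0 in all libraries of D3 and at 2.4 FPKM (D8), 4.29 and 1.15 (D10) and 4.85 and 1.43 (D12) with NanogBiD, against 0.905 and 0.785 FPKM (D8), 0.988 and 1.53 (D10) and 0.551 and 0.456 (D12) with NanogWT. Its difference at D12 (1.33, SE 0.32, adjusted p = 0.00202) was not called without NanogBiD replicate 1 (0.69), and its adjusted p was 5.99e-05 to 0.088 over the alternatives.

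**Figure D4:**
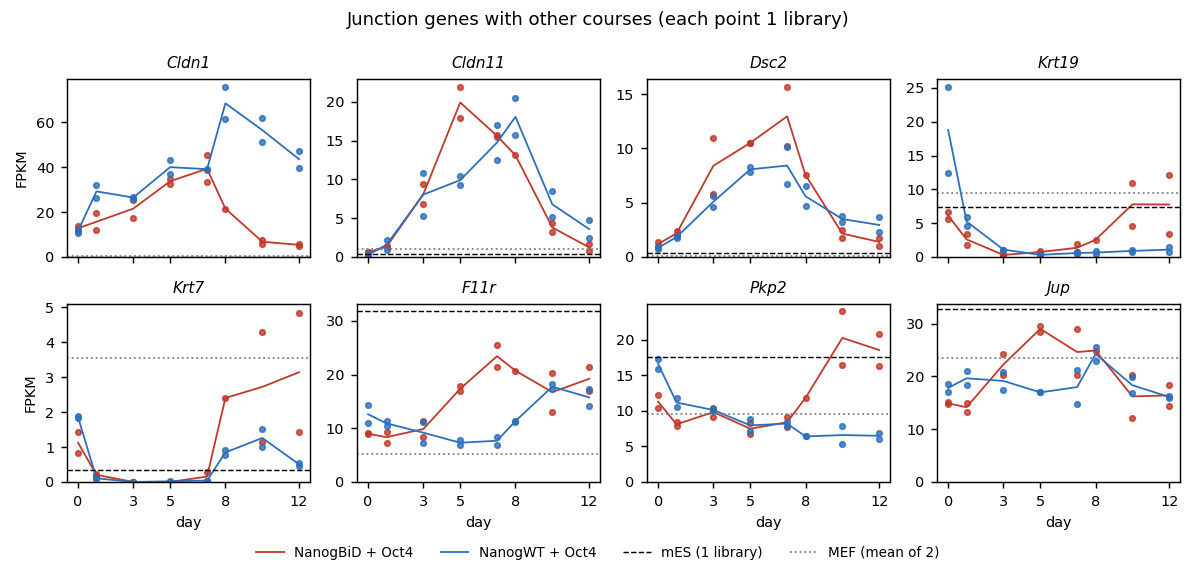
FPKM (y axes, linear, from 0) by day (x axes) of 8 members whose course differs from a late gain; points are single libraries, lines join means, and the dashed and dotted lines give mES and the mean of 2 MEF libraries. Cldn1 stays at 39.7 to 75.6 FPKM with NanogWT from D8 and falls to 4.97 to 5.71 FPKM with NanogBiD by D12, and Krt19 and Krt7 dip and return with NanogBiD.

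The 2 NanogBiD libraries of D10 and of D12 were not alike. Of the 23 members at 1 FPKM or more in mES, 20 were higher in replicate 1 than in replicate 2 at D10 (median ratio 1.67) and 20 at D12 (median ratio 1.41), where Krt8 stood at 28.8 against 8.39 FPKM. The pluripotent cell markers moved with them, 8 of 8 higher at D10 and 7 of 8 at D12. At D5 and D7 the counts were 9 and 17 of 23. The same counts over all genes are not given here, and the 23 members were picked by their level in mES. They therefore do not show a difference particular to the members. Without any 1 of the 4 libraries of D12 the number of members called between the combinations was 18 to 19, against 19 with all 4.

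The distance left to the pluripotent state was read from the same 23 members. The median level with NanogBiD was 2.89% of mES at D0, 3.99% at D3, 22.1% at D5, 41.8% at D7, 67.4% at D8, 77.5% at D10 and 71.3% at D12. With NanogWT it was 3.25% at D0, 11.4% at D3, 7.28% at D5, 11.6% at D7, 11.8% at D8, 7.08% at D10 and 7.69% at D12. At D12, 16 of the 23 stood at 50% of mES or more with NanogBiD and 3 with NanogWT. The members furthest behind with NanogBiD at D12 were Ocln (16.3%), Cldn7 (17.6%), Cdh1 (22.4%), Dsg2 (34.2%) and Pkp3 (38.1%), and Krt18 was furthest above. With a single mES library these shares carry no error and no test. The 23 members were picked by their level in that library, which favours values below it. The same shares over all genes are not given here, so these counts describe the members alone.

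Whether the change from D0 itself differed between the combinations was tested as an interaction. 12 members were called at D7 and 0 in the other direction (5.2% and 4.88% of all genes), and 17 and 2 at D12 (13.4% and 10.5%). These share the D7 or D12 libraries with the day-by-day comparison. At D7 Epcam (3.12, SE 0.48, adjusted p = 1.68e-04) and Cdh1 (2.73, SE 0.44, adjusted p = 2.77e-04) led, and at D12 Krt8 (3.94, SE 0.61, adjusted p = 5.51e-05) and Krt18 (3.70, SE 0.70, adjusted p = 4.13e-04) led, with Cldn1 (-2.94, SE 0.30, adjusted p = 5.86e-07) and Cldn11 in the other direction.

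Genes that regulate or accompany the epithelial state were taken from lists chosen beside the members. Of 12 epithelial transcription and splicing regulators, 9 were tested. Compared with NanogWT, 3 were higher and 1 lower with NanogBiD at D7, and 5 and 1 at D12 (the shares of all genes are given above). Elf3, an epithelial ETS factor, differed most (2.72 at D7 and 3.54 at D12), Esrp1, a splicing regulator of epithelial isoforms, was at 0.218 and 0.118 FPKM (D5), 1.31 and 2.17 (D7) and 3.34 and 1.47 (D12) with NanogBiD and at 0 and 0 FPKM (D5), 0.0477 and 0.0884 (D7) and 0.0196 and 0.448 (D12) with NanogWT, and Trp63, the master factor of stratified epithelia, was the one lower (-2.30 and -2.32). Of 25 other genes of the epithelial program, 22 were tested. Of these, 8 were higher and 1 lower at D7, and 12 and 3 at D12. The protease inhibitor Spint1 (1.99 at D7 and 2.16 at D12), the polarity gene Llgl2 (1.46 and 2.2) and the protease St14 (2.16 at D12) were among the higher, and Patj (-1.61 and -2.29), a scaffold of the Crumbs complex, was lower.

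Of 6 known repressors of Cdh1, 3 were lower at D3 than at D0 with NanogBiD and 2 with NanogWT. These were Snai1 (-1.24), Snai2 (-1.23) and Twist2 (-1.91) with NanogBiD, and Snai1 (-1.51) and Twist2 (-1.2) with NanogWT. At D7, 1 was higher with NanogBiD than with NanogWT (Snai1, 1.13) and 1 lower (Twist1, -1.01). The shares of all genes called in these comparisons are given above. Any part of the repressors in the course of Cdh1 was not tested. At D12 Twist1 (-3.74), Twist2 (-2.40) and Snai2 (-2.29) were lower, while Zeb1 (-0.15), Zeb2 (-0.82) and Snai1 (-0.34) were not called. Zeb1 in NanogBiD libraries was at 12.1 and 13 FPKM (D0), 7.16 and 6.83 (D5), 8.04 and 7.31 (D7) and 12.2 and 16.6 (D12), with 2.46 FPKM in mES. Zeb2 was at 16.3 and 15 FPKM (D0), 11.6 and 12.8 (D5), 11.6 and 11.9 (D7) and 4.99 and 10.6 (D12), with 0.0414 FPKM in mES. Snai2 went from 16.7 and 31.2 FPKM (D0) to 2.84 and 2.9 FPKM (D12), and Twist1 with NanogWT from 31.9 and 15.1 FPKM (D0) to 137 and 78.8 FPKM (D12).

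The cadherins of fibroblasts, Cdh2 and Cdh11, were read beside Cdh1. Cdh2 (N-cadherin) was at 15.9 and 19.2 FPKM (D0), 15.6 and 14.6 (D7) and 11.4 and 19.2 (D12) with NanogBiD, and was not called between the combinations at D12 (-0.75). Cdh11 was at 53.5 and 56.8 FPKM (D0), 47.3 and 46.6 (D7) and 11.3 and 16.3 (D12) with NanogBiD and at 53.2 and 60.8 FPKM (D0), 49.6 and 64.7 (D7) and 69.2 and 82.3 (D12) with NanogWT, and was lower at D12 (-2.39). At D12 the NanogBiD cultures thus held Cdh1 beside Cdh2 and Cdh11, whereas mES held 1.28 FPKM of Cdh2 and 0.0638 FPKM of Cdh11. The 7 fibroblast markers summed to 295 to 435 FPKM with NanogBiD and 2915 to 3305 FPKM with NanogWT at D12, and all 7 were lower with NanogBiD.

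Simple keratins and claudins are also made by other epithelia of the early embryo, so markers of these were read beside them. Of 6 trophectoderm markers, 4 were tested and 2 were higher with NanogBiD at D7, Cdx2 (2.96) and Tfap2c (2.85). The shares of all genes called are given above, for this list and those that follow. Cdx2 was at 0.202 and 0.354 FPKM (D5), 7.29 and 6.28 (D7), 2.45 (D8), 0.126 and 0.316 (D10) and 0.284 and 0.192 (D12) with NanogBiD, and Elf5 and Hand1 did not exceed 0.452 FPKM there. In the 12 iPSC libraries of the transcript table, Cdx2 was at 1.89 to 12.2 FPKM and Tfap2c at 5.79 to 29.0 FPKM. The mES library there held 1.26 FPKM of Cdx2 and 23.6 FPKM of Tfap2c, so neither was limited to D7 or to trophectoderm. The summed level of the list was 14.1 to 15.8 FPKM with NanogBiD and 2.12 to 2.16 FPKM with NanogWT at D7, and 29.5 FPKM in mES. Of 6 primitive endoderm markers 3 were tested and 0 were called between the combinations at D7 or D12 (summed 10.3 to 11.3 FPKM and 8.19 to 9.41 FPKM at D7). Of 7 markers of stratified epithelium 2 were tested. Krt5, Krt14, Krt15 and Krt6a stayed under 1 FPKM in all libraries, and the list summed to 29.7 FPKM at D8 with NanogBiD, where most of it was Sfn, which was at 3.23 and 2.67 FPKM (D7), 27.6 (D8), 17.4 and 11.2 (D10) and 11.2 and 7.21 (D12) and at 53.5 FPKM in mES. Endothelial markers summed to 15.4 to 28.3 FPKM with NanogBiD at D12, 4.19 to 5.83 FPKM with NanogWT and 48.6 FPKM in mES. Most of this was Pecam1, an adhesion molecule that pluripotent cells also make, at 25.6 and 13.7 FPKM (D12) with NanogBiD and 47.4 FPKM in mES, while Cdh5, which defines endothelium, was at 0.207 and 0.221 FPKM (D12) and listed at 0 in mES. Macrophage markers summed to 5.68 to 7.80 FPKM and 7.34 to 21.0 FPKM at D12. At D0 the macrophage markers had summed to 49.1 to 138 FPKM in the 4 libraries, against 3.93 to 7.42 FPKM in MEF, and all comparisons with D0 use these libraries. The part of any such cells in the levels of the members was not tested.

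Fibroblast markers set some iPSC libraries apart. The 7 markers summed to 1359 FPKM in NanogBiD iPSC1 sample 9 and 426 FPKM in NanogWT iPSC1 sample 3, to 2.05 to 147 FPKM in the other 5 iPSC1 libraries, to 1.24 to 32.9 FPKM in the 5 iPSC2 libraries, to 3.92 FPKM in mES and to 6263 and 7159 FPKM in MEF. Results for the iPSC are therefore also given without those samples 9 and 3, an alternative chosen after the values were seen.

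In the 12 iPSC libraries, read from the transcript table summed by symbol, 14 members were higher and 2 lower than in the 2 MEF libraries, of 23 members among 13312 genes tested (21.7% and 18.7% of all genes were called). The higher ones included both adhesion molecules, Cldn3, Cldn4 and Cldn6, Tjp3, F11r and Ocln, Dsg2, Dsp, Pkp3 and Pkp4, and Krt8. The lower ones were Krt19 and Krt7. Members under 1 FPKM in MEF, such as Cdh1 and Epcam, entered this test only through the iPSC, so the counts are read out of 45. With no filter, 30 of 43 members lay above 0 and 13 below. Their median difference was 0.20, against 0.01 over all 24839 genes. Cdh1 was at 0 and 0.0204 FPKM in MEF and at 66.2 to 110.2 FPKM in iPSC (6.46, SE 0.16, adjusted p = 5.74e-14), and Epcam at 0 and 0.106 FPKM and 22.7 to 65.1 FPKM (5.21, SE 0.37, adjusted p = 9.31e-09). Krt19 was at 6.81 and 13.4 FPKM in MEF and 0.273 to 3.70 FPKM in iPSC (-2.24, SE 0.44, adjusted p = 3.02e-04). Cldn1, at 39.7 FPKM or more in the late NanogWT cultures, did not exceed 0.544 FPKM in any iPSC library. The count was 16 members without sample 9, without sample 3, or with 1# and 1#-2 averaged as 1 sample.

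Between NanogBiD and NanogWT iPSC no member was called, and no gene of the 12456 tested (0.0%). At an unadjusted p under 0.05 limma gave 3 of the 23 members tested and 201 (1.61%) of all genes. The 3 were Epcam (-0.26), F11r (-0.27) and Cldn7 (-0.83), each lower with NanogBiD and each at an adjusted p of 0.999 by limma. In all, 18 of the 23 lay lower with NanogBiD, and with no filter 31 of 42 did. The median difference was -0.04 over these 42 members and 0.003 over all 23904 genes. The share of all genes that lay lower is not given here, so these counts describe the members alone. The line was a covariate in this fit, and 0 members were called without sample 9, without sample 3 or with 1# and 1#-2 averaged. Cdh1 was at 94.3, 70.6 and 66.2 FPKM in NanogBiD iPSC1, 92.8, 94.7 and 99.7 FPKM in NanogBiD iPSC2, 84.8, 72.6, 110.2 and 82.9 FPKM in NanogWT iPSC1 and 100.1 and 101 FPKM in NanogWT iPSC2, and the combinations overlapped. Krt8 was at 5.68, 14 and 14.6 FPKM, 11.5, 15.6 and 9.22 FPKM, 12.9, 8.5, 10.7 and 27.7 FPKM and 62.3 and 8.88 FPKM in the same order, a spread much wider than that of Cdh1. A difference short of the threshold does not show that the iPSC of both combinations were alike.

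For 2 of 23 members, Epcam and Dsg2, the values did not overlap between iPSC1 and iPSC2 (4.66% of the 12456 genes did not, and the comparison was chosen after the values were seen). Epcam was at 38.5 to 65.1 FPKM in iPSC1 and 22.7 to 26.5 FPKM in iPSC2, and Dsg2 at 13.4 to 19.1 FPKM and 23.1 to 26.7 FPKM. Without samples 9 and 3 these were again the 2 members that did not overlap (5.95% of all genes), with Epcam at 44.8 to 65.1 FPKM in the other 5 iPSC1 libraries. Sample 9, the highest in fibroblast markers, had the lowest Epcam of iPSC1 (38.5 FPKM).

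Against the mES library, all 12 iPSC lay below for 8 of the 22 members at 1 FPKM or more in that mES column, as they did for 28.4% of the 11666 genes at that level in mES. A filter on the mES library favours values below it. With a filter of 1 FPKM in 2 iPSC libraries in its place, the same 8 of 23 members lay below, against 24.0% of 12456 genes, and without samples 9 and 3 the same 8 of 22 did, against 30.8%. The 8 were Cdh1 (median 53.2% of mES), Cldn7 (8.45%), Dsp (26.7%), F11r (55.2%), Krt19 (15.4%), Ocln (25.4%), Pkp2 (37.8%) and Tjp3 (20.7%). Epcam was at a median of 99.2% and Cldn4 at 60.4% of mES. Dsp and Tjp3 had been at 90.9% and 98.0% of mES in the NanogBiD cultures at D12, but those shares come from the gene table and the tables were made separately, so the values stand side by side without a test.

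**Figure D5:**
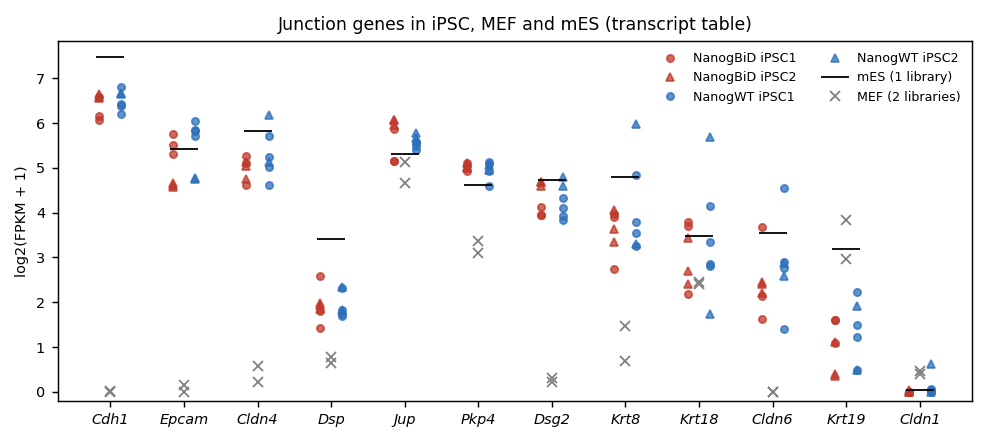
log2(FPKM + 1) (y axis) of 12 members in the transcript table (x axis); red and blue points are NanogBiD and NanogWT iPSC, circles iPSC1 and triangles iPSC2, black bars mES and grey crosses MEF. Cdh1 and Dsp lie below mES in all 12 iPSC, and Epcam separates the lines.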

How the data were processed

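RNA-seq values were analysed for 46 samples in the groups given by the sample labels. Per the labels and the study's methods, the authors trimmed reads (Trim Galore 0.6.4), aligned them to mm10 (HISAT2 2.2.1) and computed FPKM (StringTie 2.2.1; versions from the submitters' processing notes). The deposited FPKM cover 37108 genes in 34 libraries and 106520 transcripts in 15, which were summed by symbol (35976). The annotation release and the use of strand are not given in the sources used here. FPKM are not counts, so no count model was used.

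log2(FPKM + 1) was fitted with limma 3.58.1 (R 4.3.3; lmFit, contrasts.fit, eBayes with trend) as 16 group means over 31 libraries, for genes at 1 FPKM or more in at least 2 of them (16842). Tests were two-sided, with Benjamini-Hochberg adjustment over all genes. The iPSC fit (12456 genes) had the line as covariate, and iPSC against MEF (13312 genes) was fitted without it. The lone NanogBiD library of D8 was assumed to vary like the others. On simulated data, 200 genes were changed by 2 on the log2 scale. Of these, 197 were recovered in the D5 comparison, 198 between iPSC and 180 for iPSC against MEF, with 2, 3 and 1 other genes called. These counts do not show the recovery of changes nearer the limit of 1.

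Depth was read only as a ratio, from the step between FPKM values under 0.2, and intervals that need counts are not given. Values were given in every time-course library for some of the called members, and for others by range or chosen days. Results of some genes are not reported here, though the counts include them. The members and lists were chosen with earlier results of these data known. Alternatives were quantile normalization, a common total (TPM), a pseudocount of 0.1, fits without the filter or the fold limit, the compared groups alone, the replicate number as a block, other handling of the iPSC clones and line, and leaving out each library. Promoter sequences came from RefSeq (GRCm38.p6). No library pair held identical values.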

Additional observations from a re-analysis of the deposited data

Results flagged for a closer look

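The change from D0 differed between the combinations by a test of the difference itself, limma's interaction term, for 12 members at D7 and 19 at D12 (positive values: larger with NanogBiD, on the log2(FPKM + 1) scale). At D7 these included Epcam (3.12), Cdh1 (2.73), Cldn4 (2.37), Dsp (1.97), Krt19 (1.95), F11r (1.93), Cldn3 (1.52), Cldn9 (1.42), Cldn6 (1.40), Pkp3 (1.32) and Cldn7 (1.19). The value of Krt19 rests on D0, where the NanogWT libraries (12.5 and 25.1 FPKM) lay above the NanogBiD libraries (5.56 and 6.63 FPKM), and at D7 itself Krt19 differed by 0.54 without a call. F11r also lay higher at D0 with NanogWT (14.3 and 10.9 FPKM) than with NanogBiD (9.08 and 8.92 FPKM).

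At D12 they included Krt8 (3.94), Krt18 (3.70), Cldn4 (3.51), Krt19 (3.3), Cdh1 (2.91), Epcam (2.81), Cldn3 (2.38), Tjp3 (2.35), Cldn6 (2.33), Dsg2 (2.25), Pkp2 (1.90), Krt7 (1.77), Cldn5 (1.76), Dsp (1.62), Crb3 (1.39), Cldn7 (1.26), Cldn11 (-1.37) and Cldn1 (-2.94).

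Single iPSC libraries lay far from the rest of their combination, by Dixon's criterion, in 3 of 22 groups tested. Tjp1 was at 26.5 FPKM in NanogBiD iPSC1 sample 4. Krt8 was at 62.3 FPKM and Krt18 at 50.3 FPKM in NanogWT iPSC2 sample 5, the same library for both partners of this keratin pair. Chance alone picks about 1 in 20 groups.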

How the results depend on the processing

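Of 1520 repeats of 116 results for named genes, 1458 kept their direction and side of the threshold, 62 lost the call and 0 reversed. Of 307 repeats of the member counts, 280 stayed within 1.5 times. The counts that moved concerned early days or NanogWT against D0. With a pseudocount of 0.1 the members called at D1 against D0 were 6 with NanogBiD (2 in the report) and 10 with NanogWT (4), and with NanogWT 14 at D5 (8), 13 at D8 (8) and 14 at D10 (9). On a common total they were 5 and 7 at D1, and 13 at D8 and 14 at D10 with NanogWT. Quantile normalization gave 1 at D1 with NanogBiD. With no fold limit they were 4 and 8 at D1 and 15 at D8 with NanogWT, and 2 at D1, 4 at D3 (2) and 11 at D5 (7) between the combinations. With the compared groups fitted alone they were 0 at D3 between the combinations, and 1 and 0 at D1 against D0. Shares of all genes called under these alternatives are not given here, so the shifts are not read as results about the members. The cause of these shifts was not tested.

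Leaving out 1 library gave 0 to 1 members between the combinations at D0, D1 and D3, 5 to 8 at D5, 11 at D7 and 18 to 19 at D12, and 0 to 2 at D1 against D0 with NanogBiD. The call at D0 came without NanogWT replicate 2 and that at D1 without NanogBiD replicate 2. The D1 count with NanogBiD was 0 without its D1 replicate 1 and 1 without its D0 replicate 1. The interaction at D7 held 8 to 12 members, where Cldn3, Cldn4, Krt19 and Pkp3 were lost under some of these, as was Cldn11 at D12. Pkp3 in iPSC against MEF was at 0.99 without MEF replicate 1.

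The labels do not say that same-numbered replicates of the combinations belong together. Their deviations correlated at -0.0647 to 0.395 over 7 days and above 0.1 on 4 of them, so they were not treated as pairs, although a shared origin on some days was not tested. A fit with the replicate block kept 100 of 100 calls or non-calls of named results, and gave 7 members at D5, 12 at D7 and 19 at D12 between the combinations. FPKM without counts give no depth per value, so no limit could be set for members listed at 0.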
